A study of Homo sapiens with 24 samples.

Results

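Long intergenic noncoding RNAs were followed through the 24 libraries of a macrophage model. The members are the rows of the deposited table whose gene symbol is LINC followed by digits and whose value, averaged over all 24 libraries, is at least 20 normalized counts. A normalized count is the number of reads of a gene divided by 1 factor per library. This rule kept 135 of 2103 such rows, in a table of 58381 rows. The cells were THP-1, an established human monocytic leukaemia line, made macrophage-like with the phorbol ester PMA (100 nM, 24 h), so all 4 groups of 6 libraries share that treatment. Control received medium, DCVC received 5 µM S-(1,2-dichlorovinyl)-L-cysteine, a metabolite of the solvent trichloroethylene, for 24 h, and LPS received 100 ng/mL lipopolysaccharide, a bacterial membrane component sensed by TLR4, for 4 h. DCVC_LPS received DCVC for 24 h and then, in fresh medium, LPS for 4 h. The question set by the title is whether DCVC inhibits the LPS response, and here it is put to noncoding transcripts.

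Long intergenic noncoding RNAs, or lincRNAs, are transcripts made by RNA polymerase II outside protein-coding genes, usually spliced and often polyadenylated, that hold no long open reading frame. They are as a rule less abundant than messenger RNAs, many stay in the nucleus, and many are turned over quickly. In macrophages some of them are switched on with the genes of the NF-kB and interferon pathways after TLR4 is engaged, and a few are known to act on nearby genes. A LINC symbol with a number is given where no function has been settled, so most members have a name without a role. They are described here by their level, their position and the protein-coding gene beside them. The members were chosen by symbol, and not all are typed as lincRNA. The GENCODE annotation gives that type to 104 of the 135 and antisense to 10, LINC01888 and LINC01004 among them. It types 11 as processed transcripts, 6 as transcribed pseudogenes, 2 as bidirectional-promoter RNAs, 1 as sense-overlapping and 1 as protein-coding. All 135 are called lincRNAs here for short.

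Each library held between 18478618 and 30107819 reads in named genes, and the ranges of the 4 groups overlapped. The normalized totals did not stay level, with a mean of 21135356 in Control, 29427331 in LPS, 17774466 in DCVC and 21831254 in DCVC_LPS, so counts of changes are also given with every library rescaled to an equal total. Of 12 markers of monocytes and macrophages, 11 averaged at least 100 normalized counts in Control, DCVC and LPS and 10 in DCVC_LPS. The macrophage marker CD68 was the marker below that level in every group, at 5.28 in Control and 25.5 in DCVC_LPS, and the monocyte marker CD14 went from 2520.4 in Control to 289 in DCVC, 176 in LPS and 30.4 in DCVC_LPS. The summed level of the 12 lay between 261637 and 319631 in Control, between 206170 and 222088 in DCVC, between 217013 and 257305 in LPS and between 205542 and 218798 in DCVC_LPS. Of 18 markers of other cell types, 2 or 3 averaged at least 100 in a group and 9 or 10 averaged under 1. The summed level of the 18 lay between 4642 and 7535 in Control, between 1490.4 and 2222 with LPS alone, between 2252 and 3103 with DCVC alone and between 1099.6 and 1589 with both. The part of these differences in the results was not tested. Each library carries a letter from A to F, and A was like B, C like D and E like F, so pooled counts are followed by the counts in those letter pairs. Whether libraries of 1 group stem from separate cultures is not said in the labels, and the p-values therefore reflect the spread between these samples only, which may be technical.

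Most members sat near the low end of the genes tested. Their means over the 24 libraries ran from 20.5 to 1414 normalized counts with a median of 59.0, where the median of the 13900 named genes tested (mean of at least 10) was 435. Of the 135 members, 44 averaged at least 100 and 58 under 50. The highest were LINC00963 (mean 1414), LINC00504 (999.8), LINC00205 (649.9), LINC00667 (507), LINC01283 (476) and LINC01588 (450.2). These 6 held on average 27.2% of the summed member values in Control, 28.6% in LPS, 29.5% in DCVC and 28.7% in DCVC_LPS. Per kilobase of annotated exon, the order was different: LINC01388 came first with 911 normalized counts per kilobase, then LINC01283 with 606 and LINC01137 with 226, while LINC00963, whose exons span 13.2 kilobases, was at 107, with a median of 25.9 over all members.

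Since the mean chose the members, the values beside the threshold are a description. LINC02154 (mean 20.9) and LINC01914 (20.5) were the lowest inside it, and LINC00973 (19.4) and LINC01602 (19.2) the highest outside it. LINC01602 had a mean of 0.468 in Control and 38.0 in DCVC. Of the 135 members, 74 averaged at least 20 in each of the 4 groups, 32 in 3 groups, 26 in 2 and 3 in 1 group. The other 61 reached the threshold through the groups where they were high and so had to differ between groups, which is why the counts of changes in each comparison are also given for the 74, and the other counts over all 135 include the 61. All 135 passed the filter on low values used for the test.

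As a share of the normalized total of named genes, the members together were lowest in LPS and highest in DCVC. The members took 0.0747 ± 0.0011% of the normalized total (mean ± SD, n = 6) in Control and 0.0443 ± 0.0015% in LPS, compared with 0.0977 ± 0.0032% in DCVC and 0.0771 ± 0.0044% in DCVC_LPS. A share does not depend on the scale of a library. The 6 LPS libraries lay between 0.0423% and 0.0456%, below all others, and the 6 DCVC libraries between 0.0926% and 0.101%, above all others. Control, between 0.0734% and 0.0764%, lay inside the range of DCVC_LPS, between 0.0695% and 0.0818%. Without the 6 highest members the mean shares were 0.0544% in Control, 0.0316% in LPS, 0.0689% in DCVC and 0.0550% in DCVC_LPS, in the same order of groups. In bulk RNA a lower share can come from fewer cells making a transcript, less of it per cell or more of other transcripts. These cannot be told apart. The summed member values themselves ran from 15239 to 16000 in Control and from 11985 to 13816 in LPS. They ran from 16722 to 18004 in DCVC and from 15316 to 17783 in DCVC_LPS. The normalized totals thus enter each share, and they were highest in LPS and lowest in DCVC.

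**Figure D1:**
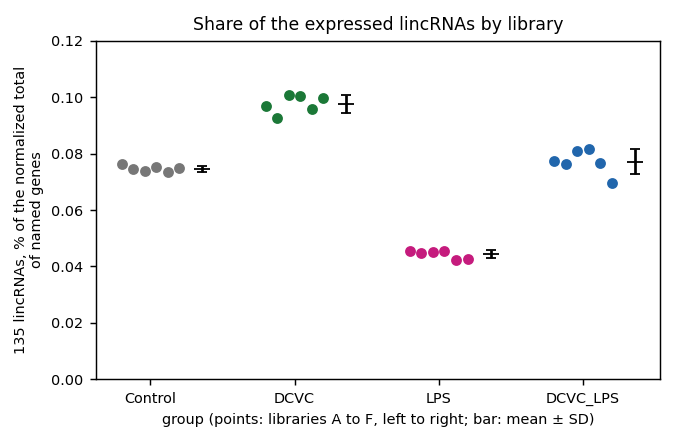
The y axis gives the summed normalized counts of the 135 lincRNAs as a percentage of the normalized total of named genes, for each library (points, letters A to F from left to right) and as mean ± SD (n = 6) per group. The 6 LPS libraries sit at 0.0423% to 0.0456%, below all others, and the 6 DCVC libraries at 0.0926% to 0.101%, above all others.

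Gene by gene, DCVC was most often the highest group and LPS most often the lowest. The highest of the 4 group means fell in DCVC for 48 members, in DCVC_LPS for 37, in Control for 27 and in LPS for 23. The lowest fell in LPS for 68, in Control for 29, in DCVC for 21 and in DCVC_LPS for 17. The most frequent pattern, in 44 of 135 members, was a peak in DCVC and a trough in LPS, and 18 were highest in DCVC_LPS and lowest in Control. With equal totals DCVC was highest for 72 members and LPS lowest for 91. The highest group mean was over 4 times the lowest in 66 members, over 10 times in 23 and under 2 times in 29. Among the 74 members that reached 20 in every group, DCVC was highest for 24, DCVC_LPS for 21, Control for 18 and LPS for 11, LPS was lowest for 35, and the highest mean was over 4 times the lowest in 19, over 10 times in 3 and under 2 times in 28. Of these 74, 21 were highest in DCVC and lowest in LPS. No such counts were made over all genes tested, so they describe the members only. In LPS 95 members averaged at least 20, compared with 108 in Control, 121 in DCVC and 123 in DCVC_LPS. The heat map of all members shows these blocks library by library.

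**Figure D2:**
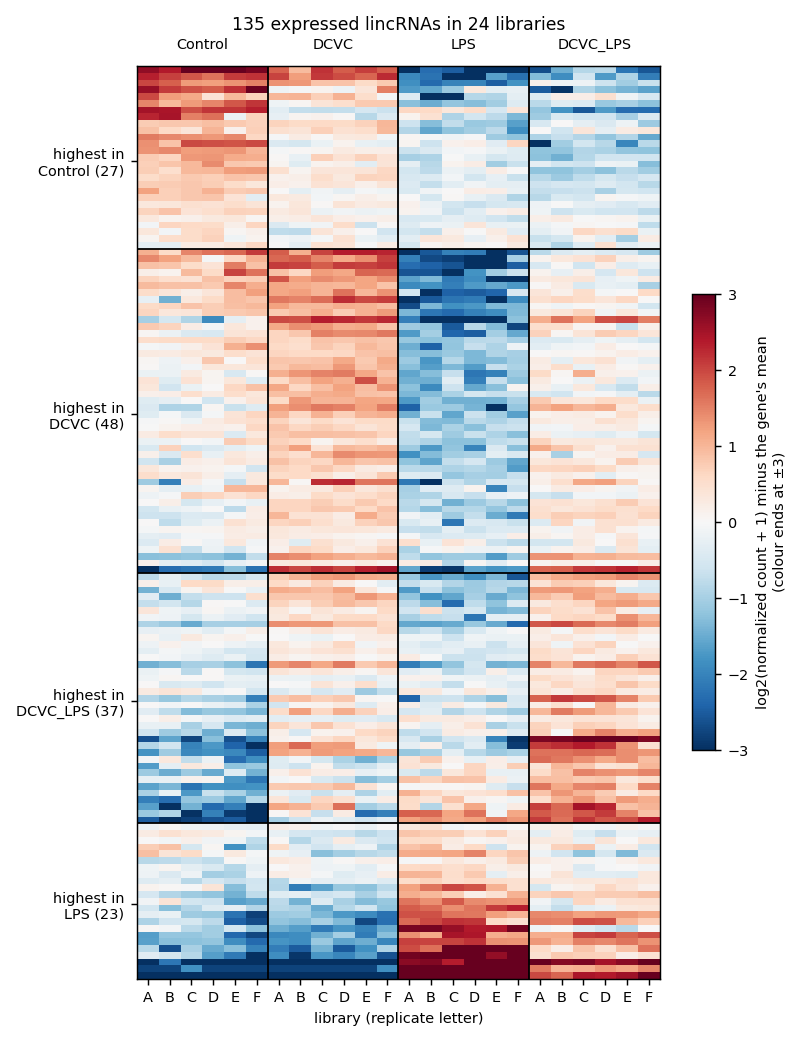
Each row is 1 of the 135 lincRNAs and each column 1 of the 24 libraries, and colour gives log2(normalized count + 1) minus the mean of that gene over all libraries, ending at ±3. Rows are grouped by the group with the highest mean (27 Control, 48 DCVC, 37 DCVC_LPS, 23 LPS) and ordered by the LPS change within a block. The LPS columns are palest or bluest in the DCVC block and reddest in the LPS block.

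LPS lowered more lincRNAs than it raised. A gene is called raised or lowered when limma, fitted on log2(value + 1) over all named genes tested, gave a Benjamini-Hochberg adjusted p under 0.05. Throughout, the ± after a log2 change or difference is the standard error from that fit over all libraries. The ± after a level or a share is the SD of the libraries of the group. In LPS minus Control 37 of 135 members were raised, where 37.8% of all genes tested were, and 76 were lowered, where 40.6% of all genes were. The median log2 change was -0.65 over the members and -0.03 over all genes tested. Among the 74 members that reached 20 in every group, 17 were raised and 41 lowered, with a median of -0.53. With equal totals, which moved the median of all genes by -0.47, 26 were raised and 91 lowered, where 22.4% and 59.5% of all genes were. Within A/B, C/D and E/F the raised members numbered 30, 33 and 28 and the lowered 68, 72 and 66. Of the 76 lowered members, 68 were lower with LPS for all 6 letters. The call itself favours such agreement, which was not counted over all genes.

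NF-kB is the transcription factor through which TLR4 acts on most early response genes, so the promoter windows of LPS-raised members with a match to its letters are shown here. The letters searched were GGNNTTTCC, on both strands, in RefSeq windows on GRCh38.p14 from 250 bases before to 50 bases after the start. They are printed 5′ to 3′ on the strand of the gene, with the match in capitals. LINC01588 is at chr14:50007471-50007770 (minus strand), LINC01686 at chr1:182614890-182615189 (plus strand) and LINC01215 at chr3:108125571-108125870 (plus strand). The RefSeq start of LINC01215 is also the gene bound in GENCODE 29, and those of LINC01588 and LINC01686 are other starts of the same genes.
LINC01588: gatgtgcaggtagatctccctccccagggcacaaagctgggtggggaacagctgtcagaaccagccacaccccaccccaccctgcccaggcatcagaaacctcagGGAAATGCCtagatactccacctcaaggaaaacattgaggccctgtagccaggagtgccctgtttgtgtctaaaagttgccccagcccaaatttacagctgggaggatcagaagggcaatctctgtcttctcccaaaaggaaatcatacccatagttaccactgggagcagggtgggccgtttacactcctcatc
LINC01686: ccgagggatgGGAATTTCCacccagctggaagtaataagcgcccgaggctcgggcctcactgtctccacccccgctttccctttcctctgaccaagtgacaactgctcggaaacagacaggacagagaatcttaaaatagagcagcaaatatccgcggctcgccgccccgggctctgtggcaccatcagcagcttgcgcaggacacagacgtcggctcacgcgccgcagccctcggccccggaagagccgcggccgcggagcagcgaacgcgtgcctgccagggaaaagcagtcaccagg
LINC01215: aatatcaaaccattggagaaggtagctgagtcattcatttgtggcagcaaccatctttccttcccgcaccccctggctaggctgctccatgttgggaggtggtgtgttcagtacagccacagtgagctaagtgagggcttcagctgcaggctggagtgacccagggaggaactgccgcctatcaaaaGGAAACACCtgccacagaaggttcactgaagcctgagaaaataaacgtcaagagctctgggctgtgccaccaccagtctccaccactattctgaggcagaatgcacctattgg
The match lies 145 to 137 bases before the start in LINC01588 and 63 to 55 before it in LINC01215, both on the opposite strand, and 240 to 232 before it in LINC01686, on the strand of the gene.

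LINC01686, 10846 bases from RGS16, which encodes a brake on G protein signalling, ran from 17.2 to 43.1 (median 25.9) in Control and from 223 to 320.4 (median 284) in LPS, a log2 change of 3.29 ± 0.20, limma adjusted p = 2e-13. LINC01215 ran from 5.43 to 19.8 (median 15.3) in Control and from 89.4 to 235 (median 102) in LPS, a log2 change of 3.29 ± 0.31, limma adjusted p = 7.16e-10. Neither overlapped between the groups. A promoter window was found for 101 of the 135 members. The NF-kB letters stood in 3 of 26 windows of LPS-raised members, in 4 of 56 windows of LPS-lowered members (LINC01943, LINC00543, LINC01534 and LINC01560) and in 0 of 19 of the rest, where 6.26% of all 35116 windows of the table hold them. A match is a description, not a binding site.

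The largest rises began from near 0. LINC02605 (chromosome 8, 78837529 to 78840522, plus strand), which lies 32006 bases from IL7, the gene of a lymphocyte growth factor, had 0 reads in the 6 Control and the 6 DCVC libraries. With LPS it ran from 220.3 to 410.1 (median 250.4) in LPS, which is at least 598-fold higher than Control if the 6 Control libraries together are set to a floor of 3 reads. LINC02865 (chromosome 6, 137945366 to 137972522, plus strand) and LINC00158 (chromosome 21, 25385820 to 25431701, minus strand) each had 1 read over the 6 Control libraries. LINC02865 ran from 41.4 to 121 (median 64.5) in LPS, a ratio of 467 (95% counting interval 83.2 to 18496), and LINC00158 ran from 63.6 to 151 (median 111) in LPS, a ratio of 709 (127 to 28045). All 3 were thus undetected or nearly so without LPS and present in each of the 12 libraries with it. The interval and the floor cover counting error only.

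LINC01181 (chromosome 8, 103121032 to 103132966, plus strand) ran from 0.905 to 16.8 (median 8.73) in Control and from 137 to 249 (median 193) in LPS, a log2 change of 4.59 ± 0.37, limma adjusted p = 3.91e-11. LINC01619, which overlaps BTG1 on the same strand so that reads of the pair cannot be fully told apart, ran from 2.56 to 11.6 (median 7.59) in Control and from 69.5 to 194 (median 177) in LPS (log2 change 4.18 ± 0.34, limma adjusted p = 3.84e-11). LINC02541 (chromosome 6, 113616927 to 113650090, minus strand), 207272 bases from the nearest protein-coding gene, ran from 4.27 to 8.41 (median 7.12) in Control and from 115 to 151 (median 126) in LPS (log2 change 4.09 ± 0.16, limma adjusted p = 2.5e-17). For these 3 the Control and LPS libraries did not overlap. Among the most abundant members, LINC01588 rose from 89.1 ± 25.2 to 951 ± 225 (mean ± SD, n = 6; log2 change 3.42 ± 0.19, limma adjusted p = 1.61e-14) and LINC01283 from 149.9 ± 91.0 to 905 ± 218 (log2 change 2.82 ± 0.32, limma adjusted p = 1.54e-08). LINC01283 was uneven in Control, with libraries from 42.5 to 262, and even there it stayed below the lowest LPS library at 612.

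Some members fell to near 0 with LPS. LINC02185 (chromosome 16, 14009280 to 14016016, minus strand), 55305 bases from MRTFB, a coactivator of serum response factor, ran from 213 to 398 (median 318) in Control and from 2.85 to 7.39 (median 3.98) in LPS. The log2 change was -5.81 ± 0.30, limma adjusted p = 4.56e-15, and every LPS library was far under every Control library. LINC01094 (chromosome 4, 78645903 to 78682699, plus strand) ran from 241 to 412 (median 275) in Control and from 17.4 to 28.5 (median 24.8) in LPS (log2 change -3.60 ± 0.19, limma adjusted p = 6.68e-15). LINC02870 (chromosome 10, 132444327 to 132449408, plus strand) ran from 38.1 to 83.3 (median 51.9) in Control and from 2.39 to 4.96 (median 4.08) in LPS (log2 change -3.49 ± 0.19, limma adjusted p = 8.71e-15). These 3 kept a few counts in every LPS library. LINC01907, LINC00920 and LINC02606 went lower still, to LPS medians of 1.45, 1.45 and 1.39 from Control medians of 47.0, 41.5 and 31.4 (log2 changes -4.53, -4.25 and -3.63), and each had libraries at 0 with LPS. The 3 members with the highest means fell as well. LINC00963, whose levels ran from 1812 to 2096 (median 1889.5) in Control and from 537 to 726 (median 599) in LPS, fell by 1.62 ± 0.08 on the log2 scale (limma adjusted p = 3.3e-15). LINC00205 and LINC00504 had log2 changes of -1.50 ± 0.08 and -1.02 ± 0.16.

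LINC00667, by contrast, was nearly level. It ran from 419 to 525 (median 451) in Control, from 436 to 592 (median 499.5) in DCVC, from 472 to 677 (median 507) in LPS and from 474 to 582 (median 515) in DCVC_LPS, and all 4 ranges overlapped. Its log2 change with LPS was 0.25 ± 0.09, limma adjusted p = 0.0165 on the deposited scale, 0.21 and not called without the letter A, and -0.23 with equal totals, so its direction rests on the scale.

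**Figure D3:**
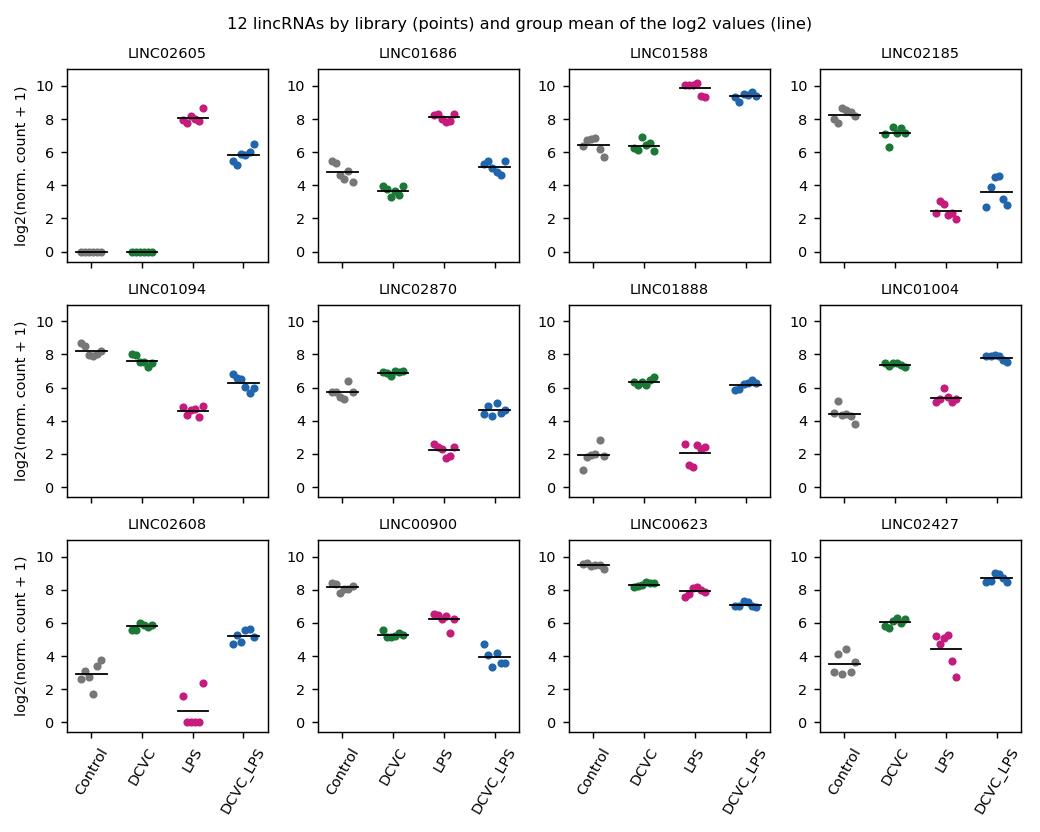
Panels show 12 of the named lincRNAs, with log2(normalized count + 1) on the y axis, 1 point per library and a line at the group mean of the log2 values (n = 6). LINC02605 is at 0 in all 12 libraries without LPS, LINC01888 is high in all 12 libraries with DCVC, and LINC00623 and LINC00900 are highest in Control.

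DCVC alone moved the lincRNAs the other way. In DCVC minus Control 62 of 135 members were raised, where 27.5% of all genes tested were, and 23 were lowered, where 32.2% of all genes were. The median log2 change was 0.31 over the members and -0.03 over all genes. Among the 74 members that reached 20 in every group, 29 were raised and 15 lowered, with a median of 0.20. Equal totals, which moved the median of all genes by 0.25, gave 76 raised and 17 lowered, where 46.1% and 20.1% of all genes were. Within A/B, C/D and E/F, 47, 55 and 34 were raised and 27, 24 and 12 lowered. Of the 62 raised members, 59 were higher with DCVC for all 6 letters, again an agreement that the call itself favours.

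LINC01888 (chromosome 2, 68832044 to 68837724, plus strand), 5211 bases from ARHGAP25, which encodes a GTPase-activating protein of white blood cells, rose most. It ran from 1.05 to 6.25 (median 2.78) in Control and from 69.3 to 99.0 (median 80.2) in DCVC, a log2 change of 4.42 ± 0.26, limma adjusted p = 1.15e-12. LINC01004 (chromosome 7, 104950315 to 105013044, minus strand), whose start lies back to back with that of the chromatin regulator gene KMT2E, ran from 12.7 to 35.0 (median 19.7) in Control and from 149.9 to 182 (median 170.0) in DCVC (log2 change 2.98 ± 0.17, limma adjusted p = 3.92e-13). LINC02608 ran from 2.28 to 12.7 (median 6.68) in Control and from 46.9 to 62.4 (median 55.9) in DCVC (log2 change 2.90 ± 0.37, limma adjusted p = 4.58e-07). In these 3 all 6 DCVC libraries lay above all 6 Control libraries. LINC01270 rose from 5.90 ± 1.81 to 38.9 ± 7.72 (log2 change 2.56 ± 0.24, limma adjusted p = 2.79e-09), LINC01705 from 12.1 ± 8.48 to 79.0 ± 33.2 (2.76 ± 0.48) and LINC02154, which was at 0 in at least 1 Control library, from 1.76 ± 1.58 to 20.9 ± 13.2 (2.94 ± 0.48).

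Cells convert DCVC to reactive electrophiles, and many genes induced by electrophiles carry the antioxidant response element, bound by NRF2. The promoter windows of the named DCVC-raised members that hold its letters, TGACNNNGC on either strand, are shown for the same reason as above. They are from RefSeq on GRCh38.p14 with the match in capitals. Windows of other DCVC-raised members with these letters are counted below but not shown. LINC01888 is at chr2:68831758-68832057 (plus strand), LINC01270 at chr20:50292470-50292769 (plus strand) and LINC01705 at chr1:222059344-222059643 (minus strand).
LINC01888: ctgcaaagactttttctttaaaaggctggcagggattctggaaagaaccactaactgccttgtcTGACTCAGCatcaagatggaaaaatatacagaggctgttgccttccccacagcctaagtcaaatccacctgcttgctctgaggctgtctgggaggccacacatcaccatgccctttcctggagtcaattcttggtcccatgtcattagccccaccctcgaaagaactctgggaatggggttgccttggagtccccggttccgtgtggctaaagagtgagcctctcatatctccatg
LINC01270: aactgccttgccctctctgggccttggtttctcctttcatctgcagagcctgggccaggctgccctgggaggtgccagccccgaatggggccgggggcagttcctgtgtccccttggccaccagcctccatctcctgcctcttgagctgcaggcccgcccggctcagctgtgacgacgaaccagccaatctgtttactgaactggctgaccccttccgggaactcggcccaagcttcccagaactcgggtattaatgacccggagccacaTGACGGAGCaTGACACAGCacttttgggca
LINC01705: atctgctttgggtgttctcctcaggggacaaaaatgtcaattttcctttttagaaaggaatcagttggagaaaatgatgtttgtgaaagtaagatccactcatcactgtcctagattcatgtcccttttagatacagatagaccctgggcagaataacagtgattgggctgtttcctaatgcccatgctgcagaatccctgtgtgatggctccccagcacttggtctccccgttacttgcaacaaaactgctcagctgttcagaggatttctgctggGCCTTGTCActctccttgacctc
In LINC01888 the match lies 186 to 178 bases before the start. LINC01270 has a pair of matches, 20 to 28 and 30 to 38 bases after the start, and the match of LINC01705 is 27 to 35 bases after it, on the opposite strand.

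The same letters stood in 11 of 47 windows of DCVC-raised members, in 5 of 18 windows of DCVC-lowered members, LINC00900 and LINC00623 among them, and in 2 of 36 of the rest, where 13.3% of all windows of the table hold them. AP-1 letters (TGANTCA), which overlap with the match in LINC01888, stood in 15.8% of the members' windows and in 7.71% of all windows. The shares for the interferon letters AAANNGAAA were 10.9% and 10.5%, and for TATAAA 12.9% and 11.5%.

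The members that DCVC lowered were fewer. LINC00900 (chromosome 11, 115754248 to 115760627, minus strand) ran from 227 to 335 (median 282) in Control and from 34.9 to 46.8 (median 36.5) in DCVC, a log2 change of -2.86 ± 0.20, limma adjusted p = 2.15e-11. LINC00623 (chromosome 1, 120913275 to 121009291, plus strand) ran from 599.9 to 802 (median 728) in Control and from 282 to 354 (median 323) in DCVC (log2 change -1.16 ± 0.10, limma adjusted p = 4.48e-10). LINC00623 lies in a duplicated part of chromosome 1 with near-identical copies, among which reads can be split, so its level is uncertain. LINC02611 and LINC00941 fell as well, with log2 changes of -1.99 ± 0.38 and -1.16 ± 0.21, and in all 4 the DCVC libraries lay below the Control libraries. LINC01605 (log2 change -1.61 ± 0.35) was uneven in Control, from 33.3 to 211, and overlapped with DCVC.

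In LPS-treated cells DCVC raised still more lincRNAs. In DCVC_LPS minus LPS 81 of 135 members were raised, where 33.3% of all genes tested were, and 24 were lowered, where 39.4% of all genes were. The median log2 change was 0.72 over the members and -0.07 over all genes, and among the 74 members that reached 20 in every group 38 were raised and 12 lowered, with a median of 0.38. With equal totals, which moved the median of all genes by 0.43, 96 were raised and 14 lowered, where 54.5% and 21.9% of all genes were. Within A/B, C/D and E/F, 73, 81 and 66 were raised and 23, 22 and 15 lowered. Of the 81, 75 were higher in DCVC_LPS for all 6 letters, which the call itself favours here too.

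LINC02608 (chromosome 1, 212225278 to 212238977, minus strand), 46560 bases from PPP2R5A, a regulatory subunit of protein phosphatase 2A, ran from 0 to 4.27 (median 0) in LPS and from 25.6 to 49.0 (median 36.3) in DCVC_LPS, a log2 change of 4.54 ± 0.37, limma adjusted p = 9.9e-11. LINC02427 (chromosome 4, 184506460 to 184537554, minus strand), 31880 bases from IRF2, the gene of an interferon regulatory factor, ran from 5.70 to 37.0 (median 29.4) in LPS and from 354 to 509 (median 399) in DCVC_LPS (log2 change 4.25 ± 0.33, limma adjusted p = 4.59e-11). LINC02427 was far higher in DCVC_LPS than in any other group, since DCVC alone left it at 65.3 ± 10.5 and Control at 11.6 ± 5.71. LINC02328 rose from 27.3 ± 6.81 to 259.5 ± 49.6 (log2 change 3.22 ± 0.17), LINC02606 from 2.14 ± 2.68 to 19.2 ± 3.37 (3.07 ± 0.37) and LINC00174, which overlaps TPST1 on the other strand, from 30.9 ± 9.99 to 230.5 ± 29.2 (2.92 ± 0.17). Reads of such a pair can be told apart only if strand was used, which is not given in the sources used here. LINC01888 stood with DCVC at a like level with and without LPS, 71.9 ± 11.2 against 81.0 ± 11.1, and its difference with LPS present was 4.12 ± 0.26.

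The largest falls from LPS to DCVC_LPS included LINC01686, LINC00158, LINC02605 and LINC01181, described above for their LPS levels. LINC01686 ran from 223 to 320.4 (median 284) in LPS and from 23.5 to 43.0 (median 35.5) in DCVC_LPS, a log2 change of -2.98 ± 0.20, limma adjusted p = 4.17e-12, and its DCVC_LPS range overlapped with Control, 17.2 to 43.1. LINC00158 ran from 63.6 to 151 (median 111) in LPS and from 12.9 to 19.2 (median 15.1) in DCVC_LPS (log2 change -2.69 ± 0.25, limma adjusted p = 9.61e-10). LINC02605 ran from 220.3 to 410.1 (median 250.4) in LPS and from 36.6 to 90.4 (median 58.0) in DCVC_LPS (log2 change -2.25 ± 0.20, limma adjusted p = 3.02e-10). No library of these 3 overlapped between LPS and DCVC_LPS, and the last 2 stayed above every Control library. LINC01181 fell from 191 ± 38.3 to 32.0 ± 5.00 (log2 change -2.53 ± 0.37), LINC00477 from 127 ± 32.2 to 31.8 ± 9.03 (-1.97 ± 0.21) and LINC00900, which LPS and DCVC each lowered, from 76.1 ± 18.3 to 15.1 ± 6.04 (-2.29 ± 0.20). LINC02865, by contrast, ran from 41.4 to 121 (median 64.5) in LPS and from 45.9 to 85.8 (median 56.3) in DCVC_LPS, with a log2 difference of -0.14 ± 0.25, limma adjusted p = 0.618. These comparisons share the LPS libraries with LPS minus Control, so the levels are set side by side and no overlap of the lists is given.

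After DCVC, the shares of lincRNAs that LPS raised and lowered were near those of all genes. In DCVC_LPS minus DCVC 35 of 135 (25.9%) were raised, where 29.9% of all genes tested were, and 48 (35.6%) were lowered, where 32.2% of all genes were, with a median log2 change of -0.14 over the members and -0.03 over all genes. Among the 74 members 16 were raised and 24 lowered, with a median of -0.07. Equal totals, which moved the median of all genes by -0.29, gave 28 raised and 69 lowered, where 16.3% and 52.7% of all genes were. Within A/B, C/D and E/F, 27, 30 and 29 were raised and 34, 39 and 38 lowered. The largest rises were in LINC02865 and LINC02605, which had 0 reads in DCVC and were at least 143-fold and 133-fold higher with LPS against the floor, in LINC00158, with a ratio of 105 (95% counting interval 18.5 to 4199), and in LINC01215, from 13.6 ± 4.40 to 140.3 ± 40.7 (log2 change 3.27 ± 0.31, limma adjusted p = 2.2e-09). The largest falls were in LINC02185 (log2 change -3.52 ± 0.30), LINC01907 (-3.29 ± 0.31), LINC00920 (-2.57 ± 0.32) and LINC02870 (-2.28 ± 0.19).

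Whether the LPS change itself differed with DCVC was tested by the interaction, which is the log2 LPS change with DCVC minus that without it. It was positive in 43 of 135 members, where 22.0% of all genes tested were, and negative in 13, where 23.7% of all genes were, with a median of 0.37 over the members and 0.02 over all genes. Among the 74 members 25 were positive and 3 negative. Equal totals gave 64 and 11, where 33.1% and 16.1% of all genes were called, and A/B, C/D and E/F gave 32, 42 and 15 positive and 12, 18 and 8 negative. With the replicate letter as a block 55 were positive and 18 negative. LINC02606 had an LPS change of -3.63 without and -1.29 with DCVC, a difference of 2.34 ± 0.53, limma adjusted p = 0.000794. In LINC02185 these changes were -5.81 and -3.52 (difference 2.29 ± 0.42, limma adjusted p = 9.96e-05), and in LINC01094 -3.60 and -1.36 (difference 2.24 ± 0.27, limma adjusted p = 3.49e-07). LINC02361 had a difference of 2.11 ± 0.75, limma adjusted p = 0.0239, which was 1.63 without the letter B and 1.59 without C, and not called in either case.

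On the negative side LINC01686 had LPS changes of 3.29 without and 1.45 with DCVC (difference -1.84 ± 0.29, limma adjusted p = 1.46e-05), and LINC01181 4.59 and 2.67 (difference -1.92 ± 0.53, limma adjusted p = 0.00465). LINC00158 and LINC02605 were largest by the fitted value, at -2.68 ± 0.36 and -2.25 ± 0.28. Both had 0 or 1 reads in Control and in DCVC, so a ratio of LPS responses cannot be formed and the fitted values depend on the added 1. Tested on recovered reads by edgeR or DESeq2, neither interaction was called.

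Some comparisons use no library in common and can be set against each other. DCVC minus Control raised 62 members and DCVC_LPS minus LPS 81, and 56 were raised in both, which is 90.3% of the first and 69.1% of the second list, with 0 of the 62 lowered in the second. For the lowered members 14 were shared, 60.9% of 23 and 58.3% of 24, and 2 of the 23 were raised in the second. The LPS changes, taken without DCVC and with it, shared 30 raised members (81.1% of 37 and 85.7% of 35) and 48 lowered ones (63.2% of 76 and 100% of 48). Of all 135 members, 60% were raised and 17.8% lowered in DCVC_LPS minus LPS, and 25.9% and 35.6% in DCVC_LPS minus DCVC. Such overlaps were not counted over all genes tested. Across the 135 members Pearson's r of the log2 changes was 0.757 for DCVC and 0.936 for LPS, compared with 0.694 and 0.861 across all 13900 genes tested. These are correlations across genes, which are not independent replicates. The scatter plots of these changes show the LPS points flatter than the diagonal.

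**Figure D4:**
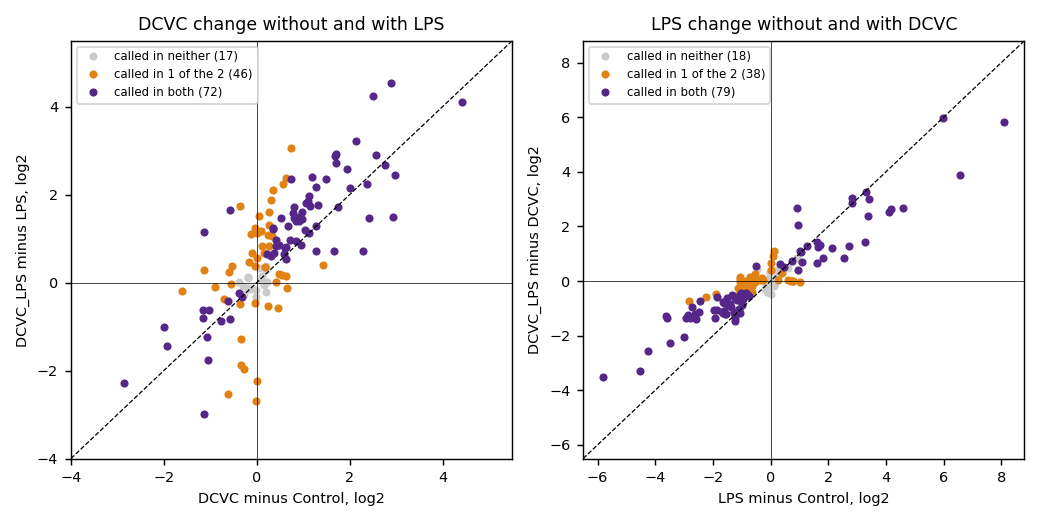
Each point is 1 of the 135 lincRNAs, the axes give log2 changes, the dashed line marks equal change, and colour gives the number of the pair of comparisons in which the gene was called. For DCVC, left, 72 members were called in both and 46 in 1, and for LPS, right, 79 in both and 38 in 1. The axes of each panel share no library.

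Members and their neighbouring protein-coding genes more often moved together with LPS than apart. In GENCODE 29 on GRCh38, 21 members overlap a protein-coding gene, 15 start back to back with one within 5 kb, 60 lie within 50 kb of one and 39 farther off. The median change with LPS was negative in all 4 classes, at -0.71, -0.71, -0.69 and -0.47. For 89 members the nearest protein-coding gene was within 100 kb and tested. With LPS both were called in 66, 44 in the same and 22 in the opposite direction. With DCVC alone both were called in 32, 19 in the same and 13 in the opposite direction, and in DCVC_LPS minus LPS in 51, 27 in the same and 24 in the opposite direction. Pearson's r across these pairs was 0.60, 0.33 and 0.39. A pair that overlaps can share reads, and 75 of the 135 members overlap some other annotated gene, 62 of them on the other strand. Of the pairs called in both with LPS, 11 of the overlapping class shared a direction and 3 did not. Those counts were 6 and 4 for back-to-back starts, 23 and 10 within 50 kb and 4 and 5 farther off.

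LINC02865 lies 62054 bases from TNFAIP3, which encodes A20, a brake on NF-kB signalling. TNFAIP3 rose with LPS from 1115 ± 337 to 45602 ± 4290.0 normalized counts (log2 change 5.40 ± 0.15, limma adjusted p = 4e-20) and was lower in DCVC_LPS, at 13462 ± 1645 (log2 change -1.76 ± 0.15, limma adjusted p = 1.56e-10). The lincRNA rose with it under LPS, while its own difference between DCVC_LPS and LPS was -0.14 ± 0.25. RGS16, beside LINC01686, went from 4341 ± 512 to 53849 ± 5568 with LPS and to 2224 ± 417 in DCVC_LPS, with log2 changes of 3.63 ± 0.14 and -4.61 ± 0.14, beside 3.29 ± 0.20 and -2.98 ± 0.20 in the lincRNA. BAALC, a gene of haematopoietic progenitors, beside LINC01181, had changes of 2.92 ± 0.26 and -4.19 ± 0.26, beside 4.59 ± 0.37 and -2.53 ± 0.37. Other neighbours of LPS-raised members that rose with LPS were VCPKMT (log2 change 1.68), BTG1 (1.66) and IFT57 (1.08). MRTFB (-2.13), CAB39 (-1.08), a partner of the kinase LKB1, and PWWP2B (-1.62) fell with LPS beside LINC02185, LINC01907 and LINC02870. POFUT2 (0.63), SPSB1 (0.56) and NTMT1 (0.17) rose with LPS beside the lowered LINC00205, LINC02606 and LINC00963. Over all 51 LPS-lowered members with a neighbour tested within 100 kb, the neighbour was lowered for 28, raised for 15 and not called for 8, and over 25 LPS-raised members it was raised for 16, lowered for 7 and not called for 2. Of all genes tested, 40.6% were lowered and 37.8% raised with LPS. Of the 41 DCVC-raised members with such a neighbour, the neighbour was raised with DCVC for 12, lowered for 10 and not called for 19. With DCVC 27.5% of all genes tested were raised and 32.2% lowered, so the raised count of neighbours was near that share. KMT2E had a DCVC change of -0.44 ± 0.05 beside 2.98 ± 0.17 in LINC01004, and ARHGAP25, at 0.28 ± 0.15 with DCVC, was lower in DCVC_LPS than in LPS, with a change of -0.90 ± 0.15 beside 4.12 ± 0.26 in LINC01888. PPP2R5A (0.93), IRF2 (0.81) and SPSB1 (0.51) were raised in DCVC_LPS minus LPS, as were LINC02608, LINC02427 and LINC02606 beside them. Over all 55 members raised in that comparison with such a neighbour, the neighbour was raised for 18, lowered for 20 and not called for 17. Of all genes tested, 33.3% were raised and 39.4% lowered there, so these counts were near those shares.

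**Figure D5:**
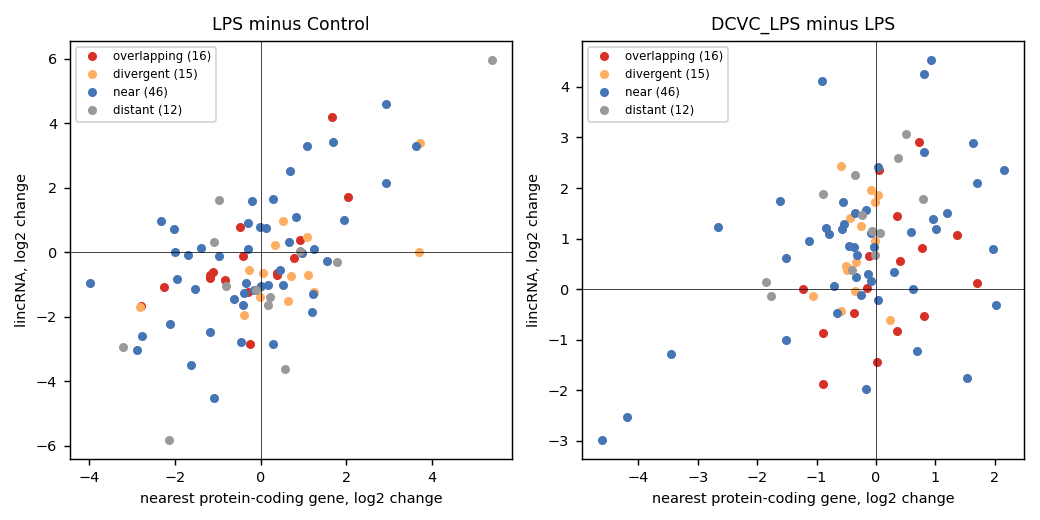
Each point is 1 of 89 lincRNAs whose nearest protein-coding gene lies within 100 kb and was tested, with the log2 change of that gene on the x axis and of the lincRNA on the y axis, coloured by position class. With LPS, left, 44 of the 66 pairs in which both were called share a direction, and in DCVC_LPS minus LPS, right, 27 of 51.

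Other noncoding RNAs with names of their own went mostly up with LPS on the deposited scale and evenly up and down with equal totals. Of 41 tested members of a list of 50, 25 rose and 6 fell with LPS (16 and 18 with equal totals) and 12 rose and 8 fell with DCVC (20 and 6 with equal totals). Of all genes tested, 37.8% rose and 40.6% fell with LPS (22.4% and 59.5% with equal totals) and 27.5% and 32.2% with DCVC (46.1% and 20.1%), so the 29.3% of the list that rose with DCVC was near the share of all genes. The list had median log2 changes of 0.35 and 0.05 beside -0.03 and -0.03 over all genes. MIR3142HG, a microRNA host transcript, rose from 34.5 ± 18.0 to 1082 ± 144 with LPS (log2 change 5.11 ± 0.26, limma adjusted p = 2.81e-15) and fell to 8.07 ± 1.88 with DCVC (-1.80 ± 0.26). MIR3945HG rose with LPS as well (5.97 ± 0.41), OIP5-AS1 and TP53TG1 fell (-1.57 ± 0.09 and -1.10 ± 0.29), and with DCVC KCNQ1OT1 and TP53TG1 rose (1.16 ± 0.24 and 1.12 ± 0.29) and CASC15 fell (-1.72 ± 0.37).

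The list of RNA turnover and processing genes holds the RNA exosome, its adaptors and the complexes that mark or survey RNA. Many noncoding transcripts are removed through these. It also holds factors of messenger RNA decay, UPF1, SMG6, DCP2 and XRN1 among them, so it is not confined to nuclear turnover. Of 40 tested members of 42, 30 rose and 2 fell with LPS (15 and 15 with equal totals), 12 rose and 10 fell with DCVC (26 and 1), and 9 rose and 24 fell in DCVC_LPS minus LPS (21 and 7). Of all genes, 37.8% rose and 40.6% fell with LPS, 27.5% and 32.2% with DCVC and 33.3% and 39.4% in DCVC_LPS minus LPS. On that scale the counts with DCVC were near the shares of all genes. With equal totals 65% of the list rose and 2.5% fell with DCVC, where 46.1% and 20.1% of all genes did. The equal-totals shares of all genes were 22.4% and 59.5% with LPS and 54.5% and 21.9% in DCVC_LPS minus LPS. The list had median log2 changes of 0.48, 0.00 and -0.23 beside -0.03, -0.03 and -0.07 over all genes. The exosome subunit EXOSC9 rose from 344 ± 41.3 to 1243 ± 197 with LPS (log2 change 1.84 ± 0.11, limma adjusted p = 7.59e-14) and was at 414 ± 64.3 in DCVC_LPS (log2 change -1.58 ± 0.11 from LPS). WTAP, a subunit of the m6A RNA methyltransferase, rose with LPS (3.59 ± 0.07), and EXOSC1 and METTL14 fell (-0.82 ± 0.10 and -0.36 ± 0.09). With DCVC the nonsense-mediated decay nuclease SMG6 and the methyltransferase subunit METTL14 rose (0.82 ± 0.11 and 0.67 ± 0.09). UPF1 and the exosome cofactor MPHOSPH6 fell (-0.39 ± 0.05 and -0.37 ± 0.10), the latter not called with equal totals. The part of these genes in the lincRNA levels was not tested.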

How the data were processed

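RNA of 24 libraries was measured by sequencing after poly-A selection, per the labels' protocols. The values deposited are a signal, that is, reads per gene that the authors divided by 1 factor for each library. This was read from the values, 100% of which were whole multiples of 1 read within a tolerance of 0.1 read. Per the submitters' processing notes the tools were STAR, featureCounts 1.6.1 and DESeq2 1.24.0 in R 3.6.0, with FastQC 0.11.5 and MultiQC 0.9, and the build was hg38. Annotation, strand setting and treatment of multiply mapped reads were not given in the sources used here.

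Rows without a symbol (33.6% of rows, 1.01% of values) were left out, and 51 symbols on 2 rows were summed. The 13900 named genes with a mean of at least 10 were tested as log2(value + 1), a scale that understates the change of low genes, with limma 3.58.1 in R 4.3.3 (trend, 20 residual degrees of freedom, all 24 libraries in 1 fit), after a check on simulated data. P-values were adjusted over all genes tested. Alternatives were edgeR 4.0.16 and DESeq2 1.42.0 on recovered reads, other pseudocounts, filters and scales, a replicate block, fits of the compared groups only, letter pairs, leaving out each letter, and stricter membership. Recovered reads gave the depth of 18478618 to 30107819 per library, which limits precision for members with few reads.

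The letters A to F are part of the titles, with no statement of what they mark. Deviations from group means were positively correlated for the same letter in all 36 pairs of libraries of different groups (0.134 to 0.539, median 0.330), so the data, not the labels, give the pairing. Other letters of the same letter pair had a median of 0.286 and all others -0.114.

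Members are named by rule: the 6 highest means, the 6 largest called rises and falls in the first 3 comparisons, the 4 largest each way in DCVC_LPS minus DCVC and the interaction, the 2 members next to the threshold on each side, neighbours within 100 kb, and from each gene list the 2 largest called changes each way. Some genes that meet the rule are not described. Members and lists were chosen with earlier results of these data known. Positions are those of GENCODE 29 (127 members matched by gene ID, 8 by symbol), and promoter windows those of RefSeq, GRCh38.p14. In RefSeq 134 members are noncoding and 1 is protein-coding, and 11 carry other current symbols.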

Additional observations from a re-analysis of the deposited data

Results flagged for a closer look

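In 13 of 152 sets of 6 libraries (38 named lincRNAs in 4 groups) 1 library stood far from the other 5. Chance alone gives about 1 in 20 for normally distributed values, which counts near 0 are not. In normalized counts, the library stood above the others for LINC00963 in Control letter E (2096, group median 1889.5), LINC01619 in DCVC_LPS letter F (67.4, group median 35.7), LINC02870 in Control letter E (83.3, group median 51.9), LINC01004 in Control letter B (35.0, group median 19.7), LINC01004 in LPS letter C (60.8, group median 38.4) and LINC02611 in DCVC letter F (44.6, group median 15.4). It stood below the others for LINC00504 in LPS letter F (283, group median 492), LINC00900 in LPS letter E (41.4, group median 80.1), LINC00941 in Control letter F (143, group median 248) and LINC02328 in Control letter C (28.4, group median 40.7). In LINC00158 in Control letter C (0.947, group median 0), LINC00158 in DCVC letter F (0.892, group median 0) and LINC02865 in Control letter B (0.854, group median 0) the single value was 1 read and all other libraries had 0. A set with a single read among zeros is always flagged by this rule. None of the flagged libraries was left out of the fits.

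By the interaction on the log2 scale, the LPS change with DCVC was called different from that without it in 23 of the 38 named lincRNAs. The 8 flagged here were named for the largest called interactions each way, so their flag follows from the naming rule. The difference was 2.29 for LINC02185, 2.34 for LINC02606, 2.24 for LINC01094 and 2.11 for LINC02361, whose falls with LPS were smaller with DCVC. It was -2.25 for LINC02605, -2.68 for LINC00158, -1.92 for LINC01181 and -1.84 for LINC01686, whose rises were smaller with DCVC. For LINC02605 and LINC00158, with 0 or 1 reads in Control and in DCVC, edgeR and DESeq2 on recovered reads did not call the difference.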

How the results depend on the processing

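The count of raised members in DCVC_LPS minus LPS was 66 to 96 in the fits of all 135 members, and in every such fit the larger of the raised and lowered counts of each comparison was the same one. Leaving out 1 letter gave 34 to 37 raised and 68 to 73 lowered in LPS minus Control, 52 to 60 and 20 to 25 in DCVC minus Control, 79 to 82 and 19 to 22 in DCVC_LPS minus LPS, 32 to 35 and 44 to 50 in DCVC_LPS minus DCVC, and 29 to 45 positive and 11 to 14 negative interactions. The letters E and F alone, with fewer libraries, gave 34 and 12 in DCVC minus Control, 15 lowered in DCVC_LPS minus LPS, and 15 and 8 interactions. Equal totals gave 14 lowered in DCVC_LPS minus LPS. With a mean of at least 20 in each group, which leaves 74 members, raised and lowered were 17 and 41, 29 and 15, 38 and 12, 16 and 24, and 25 and 3 in these 5 comparisons. With a mean of at least 50 they were 22 and 44, 30 raised in DCVC minus Control, 41 raised in DCVC_LPS minus LPS, 20 and 28 in DCVC_LPS minus DCVC, and 8 negative interactions; fewer members enter.

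Counting sign changes where either fit made a call, equal totals turned the direction of 9 of the 135 members in LPS minus Control, 1 in DCVC minus Control, 4 in DCVC_LPS minus LPS, 3 in DCVC_LPS minus DCVC and 0 in the interaction. Among named members this was LINC00667, to -0.23 in LPS minus Control, 0.38 in DCVC_LPS minus LPS and -0.25 in DCVC_LPS minus DCVC, where every gene shifts with the total. Within letter pairs LINC01588 was 0.12 in DCVC_LPS minus LPS and LINC02427 -0.14 in LPS minus Control (E and F), and LINC01914 0.018 in LPS minus Control (C and D), and the cause was not tested. With the replicate block, the pairing of letters added calls and ended none among the named members: LINC00963 (0.15), LINC00667 (0.15) and LINC02606 (0.73) in DCVC minus Control, LINC01705 in LPS minus Control (0.92) and DCVC_LPS minus DCVC (0.84), and the interactions of LINC01004 (-0.54), LINC02154 (-1.44), LINC00900 (0.57) and LINC00941 (0.55). It changed no other call of a named member. Members with under 10 normalized counts in a group rest on few reads there.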

Other observations

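Some members lie beside each other, and 3 pairs have gene bounds within 100 kb. LINC02777 and LINC01358, 29896 bases apart on chromosome 1 on opposite strands, both fell with LPS, by log2 changes of -1.39 ± 0.24 and -1.19 ± 0.29, and both rose with DCVC, by 1.32 ± 0.24 and 1.95 ± 0.29. The nearest protein-coding gene of LINC02777 is JUN, which encodes a subunit of AP-1. LINC02257 and LINC01705, 63182 bases apart on chromosome 1 on the same strand, both rose with DCVC (1.05 ± 0.34 and 2.76 ± 0.48), while their changes with LPS were -0.86 ± 0.34 and 0.92 ± 0.48, the latter with limma adjusted p = 0.0839 without and 0.000113 with the replicate letter as a block. LINC01282 and LINC01283, 9478 bases apart on the X chromosome on the same strand, had LPS changes of 0.62 ± 0.38 (limma adjusted p = 0.138) and 2.82 ± 0.32.

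A further pair, LINC02427 and LINC02362, has IRF2 as the nearest protein-coding gene of both and was chosen after its values were seen. LINC02362 ran from 2.71 to 7.58 (median 6.55) in Control, from 14.3 to 28.3 (median 24.9) in DCVC, from 1.98 to 9.97 (median 8.02) in LPS and from 25.6 to 65.6 (median 53.1) in DCVC_LPS. Like LINC02427 it was highest in DCVC_LPS, with a change of 2.72 ± 0.30, limma adjusted p = 1.57e-08, while IRF2 itself had 0.81 ± 0.07. The LPS change of LINC02427 without DCVC, 0.91 ± 0.33, was 0.66 without the letter A and 0.65 without C, and not called in either case. LINC01137, which starts back to back with ZC3H12A, the gene of an RNase that degrades inflammatory messenger RNAs, ran from 255 to 340.0 (median 287) in LPS and from 345 to 463 (median 407) in DCVC_LPS, a log2 change of 0.47 ± 0.09, limma adjusted p = 3.48e-05.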
